A study of Mus musculus with 11 samples.

Results

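Immediate early genes are the first genes that neurons and glia transcribe after synaptic activity, growth factors or injury, since the factors that switch them on are already present in the resting cell. The phosphorylated factor CREB at cAMP response elements and serum response factor at CArG boxes drive many of them, and most of their transcripts are degraded again within hours. Most encode transcription factors that act on a second wave of genes, and a few encode proteins that act at synapses. The 10 genes described here were taken by name: the AP-1 subunits Fos, Fosb, Fosl2 and Junb, the zinc finger factors Egr1 and Egr2, the orphan nuclear receptor Nr4a1, the neuronal factor Npas4, the synaptic effector Arc and the nuclear protein Ier2. Their probes were found through the RefSeq accessions that the array files give, and all 10 were among the 25997 features tested.

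RNA came from the right-hemisphere cortex of 22 C57/Bl6J mice aged 5 to 7 months, measured on 11 Agilent 2-colour arrays (A to F and I to M) with 1 mouse in each colour. Transgenic mice with a cryolesion (TC, n = 6) and wild-type mice with a cryolesion (WTC, n = 5) had dry ice applied for 30 s and were sampled 3 days later. Intact transgenic mice (T, n = 5) and intact wild-type mice (WT, n = 6) had no lesion. The transgenic mice carried GFA2-tTa and TetO-VP16-CREB, in which a promoter active in astrocytes drives a tetracycline transactivator and this in turn drives VP16-CREB, a constitutively active CREB. Both lesioned groups thus share the injury, and TC and T share the transgenes. The transgene itself is not measured by a probe known to be specific for it, so the genotype could not be checked on the arrays. Homogenised tissue holds every cell type, so fewer cells of a type and less RNA per cell cannot be told apart.

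For arrays I, J and K the label of the Cy3 mouse contradicts the array's title: the mice of I and K are TC by title and T by the other label, and that of J is T by title and TC by the other. Groups were taken from the titles. The fitted values, the counts and the correlations between the 10 genes are also given without these arrays, while the ranking of other features by likeness rests on all 11. With the titles' groups, the mean log2 level of 6 astrocyte markers ran from 12.74 to 13.41 in TC mice and from 11.99 to 12.24 in T mice, without overlap. The TC mouse of array I had a microglial marker mean of 11.41, with T mice at 11.60 to 11.89 and the other TC mice at 12.60 to 13.53. Its blood marker mean was 11.90, with T mice at 11.37 to 12.34 and the other TC mice at 10.27 to 11.18. For the Cy3 mice of J and K the microglial means were 11.89 and 13.23, and the blood means 11.37 and 10.27. Which label is right was not tested. Slide 1 held 1 TC, 2 WTC, 3 T and all 6 WT mice, so that group and slide are partly confounded. Each channel had 56.6% to 65.3% of its spots well above background. The 7 excitatory cortical neuron markers, Slc17a7 among them, were well above background in 21 or 22 of 22 channels. The 8 striatal neuron markers, such as Drd1 and Drd2, were well above background in 19 to 22 channels, and their mean log2 level ran from 9.19 to 11.67 in TC mice, from 9.08 to 12.35 in WTC, from 9.29 to 12.05 in T and from 9.55 to 12.91 in WT.

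Because the transgene product is a CREB, the DNA upstream of the genes' starts is shown for 4 genes whose window holds a cAMP response half-site. RefSeq windows of 250 bases before the start were used for 7 of the 10 genes (GRCm38.p6), without Arc, Egr1 and Ier2. The chromosome of Egr1 was left out for the 10 genes but kept among all windows, so Egr1 was not scanned. Capitals mark matches to the half-site TGACG on either strand, the Egr site GCGNGGGCG on either strand and TATAAA in Fos.

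Fos (chr12:85473640-85473889, plus strand): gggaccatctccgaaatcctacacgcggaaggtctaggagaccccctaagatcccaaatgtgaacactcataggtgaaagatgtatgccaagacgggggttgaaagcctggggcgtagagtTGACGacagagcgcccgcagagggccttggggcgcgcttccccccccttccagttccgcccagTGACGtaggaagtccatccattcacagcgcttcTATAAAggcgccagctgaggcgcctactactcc
Junb (chr8:84978749-84978998, minus strand): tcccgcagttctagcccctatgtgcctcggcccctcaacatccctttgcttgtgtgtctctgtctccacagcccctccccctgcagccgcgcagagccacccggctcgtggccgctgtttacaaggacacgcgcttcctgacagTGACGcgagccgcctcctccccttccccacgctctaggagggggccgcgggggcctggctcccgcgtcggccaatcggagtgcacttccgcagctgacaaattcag
Nr4a1 (chr15:101266596-101266845, plus strand): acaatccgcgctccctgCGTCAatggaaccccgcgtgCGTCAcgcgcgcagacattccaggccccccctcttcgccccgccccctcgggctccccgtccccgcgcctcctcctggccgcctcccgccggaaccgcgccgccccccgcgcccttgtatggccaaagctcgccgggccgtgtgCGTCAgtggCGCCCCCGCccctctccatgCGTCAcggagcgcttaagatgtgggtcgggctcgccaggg
Npas4 (chr19:4989972-4990221, minus strand): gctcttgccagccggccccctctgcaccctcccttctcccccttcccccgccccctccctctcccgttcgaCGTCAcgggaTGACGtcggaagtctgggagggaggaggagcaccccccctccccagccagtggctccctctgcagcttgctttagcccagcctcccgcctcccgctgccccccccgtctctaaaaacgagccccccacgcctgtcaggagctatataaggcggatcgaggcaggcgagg

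The Fos window held TGACG from -129 to -125 and from -66 to -62, counted from the start, and TATAAA from -33 to -28. Nr4a1 held 4 half-sites, of which the nearest lay from -40 to -36, and an Egr site from -60 to -52. Npas4 held 2 half-sites, from -179 to -175 and from -169 to -165, and Junb 1, from -106 to -102. Fosb and some of the windows of Egr2 held the half-site as well, so that 6 of 7 genes had it in any window. Of 32851 single promoter windows of the same length, 17.8% held it. The 7 genes had 11 windows, so shares of genes and of windows, here and below, are unlike units. The Egr site was present in 3 of 7 genes, which were Fosb, Fosl2 and Nr4a1, and in 4.7% of all windows. A CArG box stood in 1 of 7 genes, Egr2, and in 1.47% of all windows. The full element TGACGTCA, which contains the half-site, was in 0 of 7 genes and in 1.55% of windows, and the AP-1 site TGANTCA (6.75%) and the Nr4a1-binding element AAAGGTCA (1.34%) were in 0 of 7. These matches are letters in a window and were not tied to binding, and sites more than 250 bases upstream were not scanned.

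Fos encodes the AP-1 subunit whose transcript is the usual marker of recently active neurons, and of the 10 genes it had the largest estimate for lesioned transgenic against lesioned wild-type cortex. Its log2 level was 11.07, 9.40, 9.60, 9.64, 9.89 and 10.38 in the TC mice of arrays C, I, J, K, L and M. In the WTC mice of arrays A, B, K, L and M it was 8.40, 8.58, 8.27, 9.17 and 8.95. Every TC mouse was above every WTC mouse, which implies the same among those of slide 2. Intact T mice of arrays D, E, F, I and J had log2 levels of 8.51, 8.94, 10.32, 9.41 and 9.20. Intact WT mice of arrays A to F had 8.28, 7.72, 8.51, 8.27, 8.52 and 8.97, which overlap those of T and of WTC. The order of the means was thus TC at 9.996 ± 0.63 (SD, n = 6), T at 9.28 ± 0.67 (n = 5), WTC at 8.67 ± 0.38 (n = 5) and WT at 8.38 ± 0.41 (n = 6), and each neighbouring pair in that order overlapped.

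**Figure D1:**
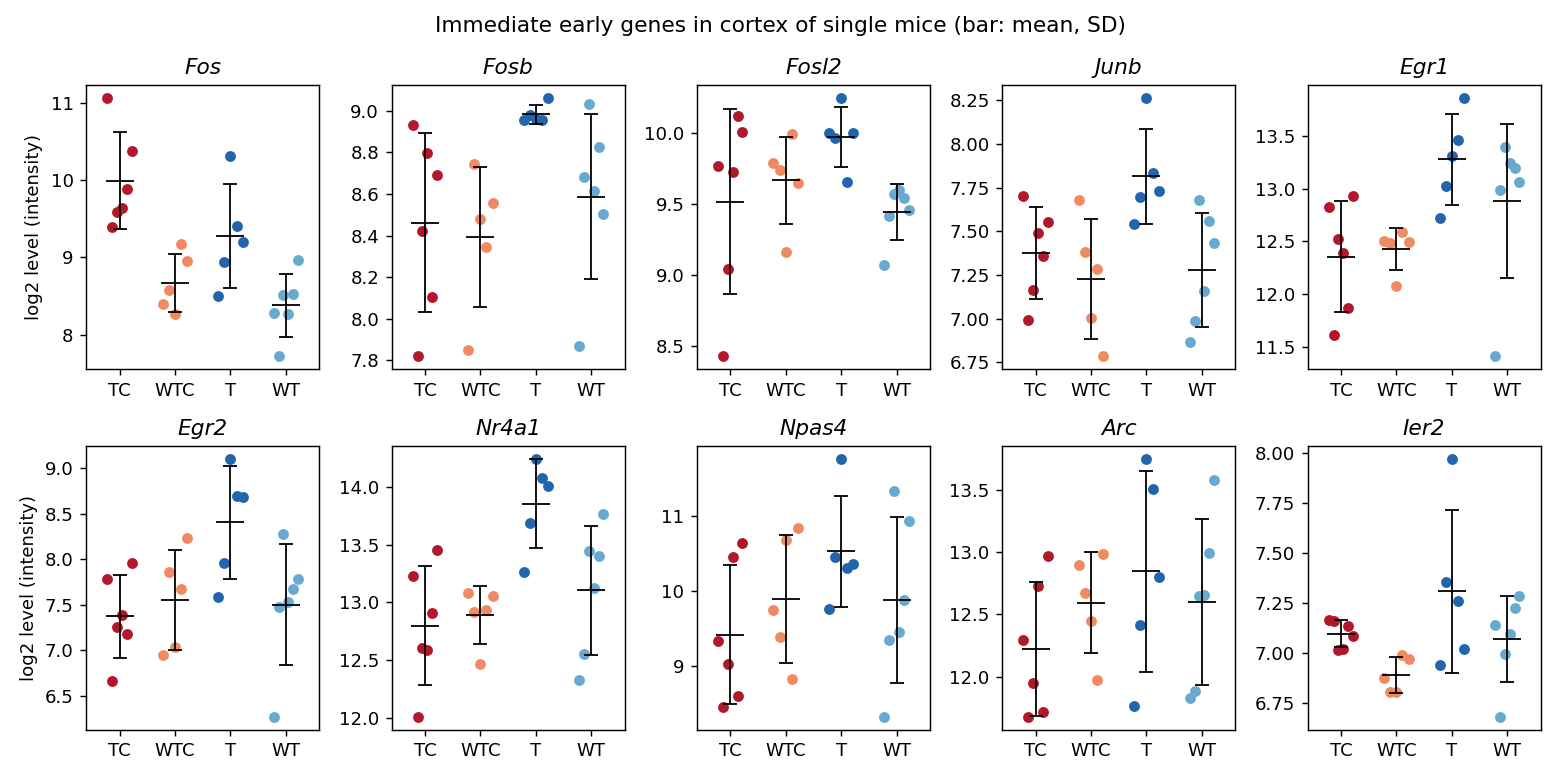
Log2 level (normalized intensity) of each of the 10 genes in each mouse, with 1 panel a gene and groups TC, WTC, T and WT from left to right. Points are mice and bars the group mean with its SD; the 6 TC mice sit above the 5 WTC mice for Fos (9.40 to 11.07 against 8.27 to 9.17) and, over a much narrower range, for Ier2.

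In the limma fit to all 11 arrays, the TC minus WTC log2 ratio of Fos was 1.17 ± 0.28 (SE), a 2.24-fold difference with a 95% interval of 0.53 to 1.81 on the log2 scale. Its unadjusted p was 0.00251 and its Benjamini-Hochberg adjusted p over all features was 0.163 (limma), so it did not pass the threshold of 0.05. The 3 arrays that paired a TC with a WTC mouse gave log2 ratios of 1.40, 0.69 and 1.46, all in the same direction. Without arrays I, J and K the log2 ratio was 1.34, with an unadjusted p of 0.00527 in limma. A fit to the separate colour channels gave 1.26 with an adjusted p of 0.0713. The authors' deposited table, made from the same arrays, lists 10 spots of Fos with log fold changes of 1.34 to 1.49 and adjusted p-values of 0.012 to 0.0179 for this comparison. With the mean of the striatal neuron markers as a covariate the log2 ratio was 0.70 (unadjusted p = 0.213, limma). Those 8 markers were lower in TC than in WTC, with a median log2 ratio of -1.83. The 5 choroid plexus markers were all lower as well, with a median of -2.53, and 2 of them had an unadjusted p under 0.05 (limma). The part of either list in the Fos difference was not tested.

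None of the 10 genes passed the adjusted threshold for TC minus WTC in limma (0 of 10, against 0% of all features tested). In the separate-channel fit 0 of 10 passed, against 0.108% of features. At an unadjusted p under 0.05 it was 1 of 10, against 14.8% of features, and this gene was Fos. Levels of TC and WTC did not overlap for 2 of the 10, against 0.439% of all features. The other of these was Ier2, a nuclear protein induced by growth factors, with log2 levels of 7.16, 7.16, 7.01, 7.02, 7.14 and 7.08 in TC mice and 6.87, 6.80, 6.80, 6.99 and 6.97 in WTC mice. The gap was small, and the fitted log2 ratio of Ier2 was 0.18 ± 0.12 (adjusted p = 0.525, limma).

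The other AP-1 genes had smaller estimates between the lesioned groups. Their TC minus WTC log2 ratios were -0.04 ± 0.14 for Fosb, 0.07 ± 0.21 for Fosl2 and 0.14 ± 0.22 for Junb, with adjusted p-values from 0.803 to 0.905 (limma). The 95% interval of Fosb, -0.35 to 0.27, lies wholly below that of Fos. Npas4, which neurons induce upon calcium entry, had a log2 ratio of -0.73 ± 0.36 (adjusted p = 0.391, limma), with an interval of -1.54 to 0.09. Arc, whose product controls AMPA receptor endocytosis, had -0.53 ± 0.39, Egr2 -0.46 ± 0.29, Egr1 -0.38 ± 0.37 and Nr4a1 -0.25 ± 0.30, with adjusted p-values from 0.486 to 0.722 (limma). The median over the 10 genes was -0.15, beside -0.02 over all features. When arrays I, J and K were left out the median was -0.05, and the log2 ratios of the 9 genes other than Fos ran from -0.84 (Npas4) to 0.17 (Junb), with adjusted p-values of at least 0.317 in limma.

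In wild-type mice 3 days after the cryolesion, none of the 10 genes passed in either fit to all mice. For WTC minus WT, 0 of 10 passed the adjusted threshold in limma, against 0.0231% of all features, and 0 of 10 had an unadjusted p under 0.05, against 19.5%. In the separate-channel fit 0 of 10 passed, against 26.6% of features. Levels of WTC and WT overlapped for all 10, while they did not overlap for 16.7% of features. The median log2 ratio over the 10 was 0.00, beside 0.00 over all features, with 5 values above 0 and 5 below. When arrays are centred on the median in place of loess, the median of all features moves to -0.11 in this comparison and that of the 10 genes to -0.11, with 2 values above 0. Without arrays I, J and K the median over the 10 was 0.35 with 9 values above 0, and 0 of 10 passed in the fit to ratios, against 6.7% of features. In a separate-channel fit without these arrays, added after seeing the data, 1 of 10 passed, against 26.3% of features, and this gene was Fosl2 with a log2 ratio of 0.35 ± 0.11 (adjusted p = 0.0354, limma). Fos had the highest log2 ratio, 0.48 ± 0.32 (adjusted p = 0.445, limma), and Egr1 the lowest, -0.29 ± 0.42 (adjusted p = 0.739). The intervals were wide, from -0.25 to 1.21 for Fos and from -1.23 to 0.65 for Egr1, so that they include differences of over 2-fold.

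One WT mouse, on array A, weighed on this comparison. Its log2 level of Egr1 was 11.42, against 12.98 to 13.39 in the other 5 WT mice, and its Egr2 level 6.27, against 7.48 to 8.27. The same mouse had a mean log2 level of 10.32 for the excitatory neuron markers, against 11.57 to 11.96 in the other WT mice. In a separate-channel fit without it, added after seeing the data, Egr1 had a WTC minus WT log2 ratio of -0.74 with an adjusted p of 0.0264 in limma. It was the 1 gene of 10 that passed there, against 22.3% of all features. The part of neuron content in this was not tested.

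In transgenic mice the values after the lesion lay mostly below those of intact cortex, Fos apart. For TC minus T, 9 of the 10 log2 ratios were negative, with a median of -0.66 beside 0.00 over all features. In the fit to ratios 0 of 10 passed the adjusted threshold (limma), against 0% of features, and 6 of 10 had an unadjusted p under 0.05, against 11.9%. In the separate-channel fit 2 of 10 passed, against 7.25% of features. Both, Nr4a1 and Egr2, fell in that fit.

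Nr4a1, a nuclear receptor without a known physiological ligand, had log2 levels of 13.23, 12.01, 12.60, 12.59, 12.91 and 13.46 in the TC mice of arrays C, I, J, K, L and M. In the T mice of arrays D, E, F, I and J it had 13.27, 13.69, 14.25, 14.08 and 14.01. The groups overlapped only through the TC mouse of array M and the T mouse of array D. The TC minus T log2 ratio was -1.07 ± 0.33 (adjusted p = 0.309) in the fit to ratios and -1.07 ± 0.25 (adjusted p = 0.018) in the separate-channel fit (limma). Egr2, a zinc finger factor of the Egr family, had 7.78, 6.66, 7.25, 7.39, 7.18 and 7.95 in TC mice and 7.58, 7.95, 9.11, 8.70 and 8.68 in T mice. Its log2 ratios were -1.28 ± 0.32 (adjusted p = 0.274) and -1.12 ± 0.30 (adjusted p = 0.032) in the same pair of limma fits. The Egr2 probe was well above background in 21 of 22 channels and the other probes used in all 22.

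Fosb, an AP-1 subunit with a long-lived splice form, gave the narrowest group of all: its log2 level was 8.95, 8.98, 8.96, 8.96 and 9.06 in the 5 T mice. The 6 TC mice had 8.93, 7.82, 8.42, 8.80, 8.11 and 8.69, all below the T mice. It was the 1 gene of 10 without overlap between TC and T, against 4.88% of all features. Its log2 ratio was -0.66 ± 0.15, with an unadjusted p of 0.00172 and an adjusted p of 0.259 in limma. Npas4 had the lowest log2 ratio, -1.44 ± 0.40 (adjusted p = 0.294, limma), with log2 levels of 8.45 to 10.64 in TC mice and 9.75 to 11.77 in T mice. For Egr1, the growth-factor-induced zinc finger factor, and for Fosl2 the log2 ratios were -0.95 ± 0.41 and -0.66 ± 0.23, with adjusted p-values of 0.409 and 0.345 in limma. Arc at -0.52 ± 0.43, Junb at -0.38 ± 0.24 and Ier2 at -0.07 ± 0.14 were nearer 0, with adjusted p-values from 0.568 to 0.894. Fos alone was positive, at 0.66 ± 0.32 (adjusted p = 0.447, limma).

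**Figure D2:**
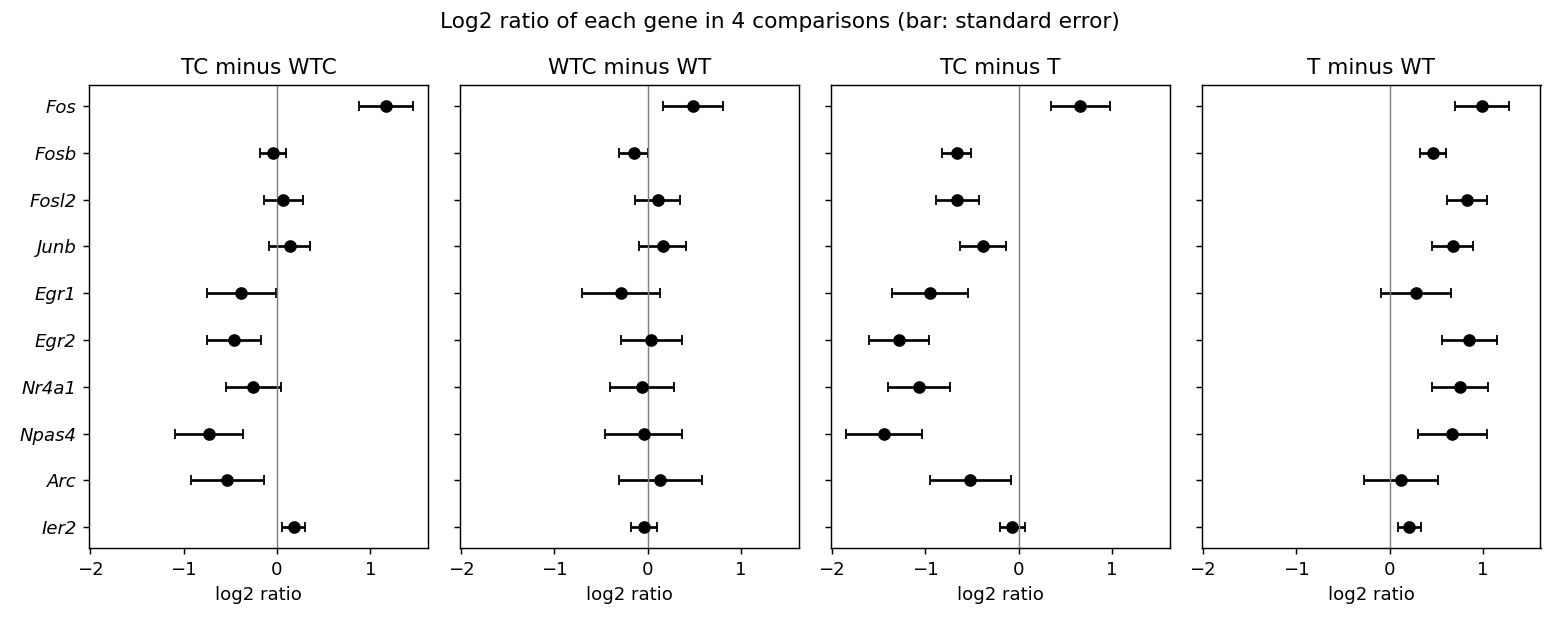
Fitted log2 ratio (x axis) of each of the 10 genes (y axis) in the comparisons TC minus WTC, WTC minus WT, TC minus T and T minus WT, with points for the limma estimate over 11 arrays and bars for its standard error. Fos is above 0 in all 4 panels, and the other 9 genes are below 0 for TC minus T and above 0 for T minus WT.

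The median of the TC minus T values was nearer 0 without the arrays with contradictory labels. Both arrays that paired a TC with a T mouse, I and J, are among them, and array I gave log2 ratios of -2.66 for Nr4a1, -2.31 for Egr1 and -2.24 for Arc, whereas array J gave -0.82, -0.87 and -0.44. Without arrays I, J and K, the median over the 10 genes was -0.06 with 3 values above 0, and with the other labels it was -0.15. Egr2 and Npas4 had log2 ratios of -0.74 and -1.31 without those arrays, while Nr4a1 was at -0.03, Arc at 0.66 and Fos at 1.40. The estimates of Fos, Arc and Ier2 lay farther from 0 than with all arrays, and those of the other 7 genes nearer. In the separate-channel fit without these arrays 0 of 10 passed, against 3.98% of features, with Nr4a1 at -0.45 (adjusted p = 0.535) and Egr2 at -0.65 (adjusted p = 0.524, limma). The TC mouse of array I had the lowest mean log2 level of excitatory neuron markers of all 22 mice, 9.10. The other 5 TC mice ran from 10.99 to 11.73, and the 5 T mice from 11.69 to 12.37. With these markers as a covariate the median was -0.30, and 5 of 10 genes had an unadjusted p under 0.05 (limma). The 7 markers all had negative TC minus T log2 ratios, with a median of -0.88. The 8 striatal neuron markers were all negative as well, with a median of -1.38, and 7 of them had an unadjusted p under 0.05. With the striatal markers as a covariate the median of the 10 genes was -0.66, and 3 of 10 had an unadjusted p under 0.05, against 6 of 10 without it (limma). The share of all features at that p was not counted with either covariate. The part of either marker list in the result was not tested.

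Intact transgenic cortex had higher estimates than intact wild-type cortex for all 10 genes, but no gene passed the adjusted test. For T minus WT the median log2 ratio was 0.67, beside 0.00 over all features. In limma 0 of 10 passed, against 0% of features, and in the separate-channel fit 0 of 10, against 0% as well. At an unadjusted p under 0.05 it was 6 of 10, against 2.93% of features; the genes were chosen with results of these mice known. TC minus T and T minus WT share the T mice, so that a high value in T enters both with opposite sign.

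Fosl2, an AP-1 subunit of the Fos family, was the 1 gene of 10 whose levels did not overlap, against 0.519% of features. It had log2 levels of 10.0045, 9.97, 10.25, 9.66 and 10.0037 in T mice and 9.07, 9.42, 9.57, 9.60, 9.55 and 9.46 in WT mice. The log2 ratio was 0.83 ± 0.21, with an unadjusted p of 0.00326 and an adjusted p of 0.982 in limma. A dimmer second probe of Fosl2, above background in 6 channels, gave only 0.07. Fos had 0.99 ± 0.29, Egr2 0.85 ± 0.29, Nr4a1 0.75 ± 0.30, Junb 0.68 ± 0.22 and Fosb 0.47 ± 0.14, all with an adjusted p of 0.982. Npas4, Egr1, Ier2 and Arc had log2 ratios of 0.67, 0.28, 0.21 and 0.12, with unadjusted p-values from 0.101 to 0.771 in limma. The 3 T mice on slide 1 had 9.97 to 10.25 for Fosl2, and the WT mice, all on slide 1, at most 9.60. This follows from the lack of overlap over all mice and is no separate check.

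Among the T mice, that of array F had the highest level for 8 of the 10 genes, with 10.32 for Fos, 11.77 for Npas4 and 13.75 for Arc. The WT mouse on the same array was the highest WT mouse for Fos, at 8.97, and for Arc, at 13.58. For Npas4 it had 10.93, below the WT mouse of array C at 11.33. Without arrays I, J and K the median T minus WT log2 ratio was 0.39, with 8 of 10 positive, and Arc and Egr1 were at -0.42 and -0.15. In that setting Fosl2 had 0.53 and Fosb 0.33, with unadjusted p-values of 0.0132 and 0.0216 in limma. The excitatory neuron markers again had a like sign, 7 of 7 positive with a median log2 ratio of 0.67. With them as a covariate the median of the 10 genes was 0.37, and 6 of 10 had an unadjusted p under 0.05 (limma). The 8 striatal neuron markers were all lower in T than in WT, with a median of -1.24, and 7 of them had an unadjusted p under 0.05. The 5 oligodendrocyte markers were all negative too, with a median of -0.47 and 0 at an unadjusted p under 0.05. With the striatal markers as a covariate the median of the 10 genes was 0.61, and 2 of 10 had an unadjusted p under 0.05 (limma). The share of all features at that p was not counted with either covariate. The part of these marker lists in the result was not tested.

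Whether the lesion acted unlike in transgenic and wild-type mice was tested as the difference (TC minus T) minus (WTC minus WT). No gene passed in limma: 0 of 10 against 0% of features in the fit to ratios, and 0 of 10 against 0% in the separate-channel fit. At an unadjusted p under 0.05 it was 5 of 10, against 5.33% of features, and all 5 were negative: Npas4 at -1.40 ± 0.47, Egr2 at -1.32 ± 0.37, Nr4a1 at -1.005 ± 0.39, Fosl2 at -0.76 ± 0.27 and Fosb at -0.51 ± 0.18, each with an adjusted p of 0.807. Without arrays I, J and K the median of the 10 was -0.33, and it was -0.66 with them. Without them 2 of 10 had an unadjusted p under 0.05, Egr2 at -1.09 and Fosb at -0.39 (limma). Of all 25997 features 723 were higher and 946 lower at that p. Fos had 0.18 ± 0.37 (adjusted p = 0.918); its interval ran from -0.65 to 1.01.

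Most of the genes were correlated from array to array, and Fos and Ier2 less so. Over the 11 array log2 ratios, Pearson's r between pairs of the 8 other genes was positive for 28 of 28 pairs, from 0.60 to 0.93 with a median of 0.79, and Spearman's rho ran from 0.36 to 0.93. The closest pair was Fosl2 with Junb at 0.93, followed by Egr2 with Nr4a1 at 0.91. Without arrays F and I the same pairs ran from 0.07 to 0.90, with a median of 0.64. Over the 8 arrays other than I, J and K, 27 of 28 pairs were positive, from -0.16 to 0.94 with a median of 0.53. Fos had r between -0.37 (Npas4) and 0.64 (Ier2) with the other 9 genes, with a median of 0.08, which was 0.25 without arrays I, J and K. The arrays share group contrasts and dissection, so these are descriptions. When each mouse's deviation from its group mean was used in place of the ratios, the median r of Fos with the others was 0.58. These deviations keep what the 2 mice of an array share, which the ratios cancel. Whether this r belongs to the mice or to the arrays therefore cannot be told apart.

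**Figure D3:**
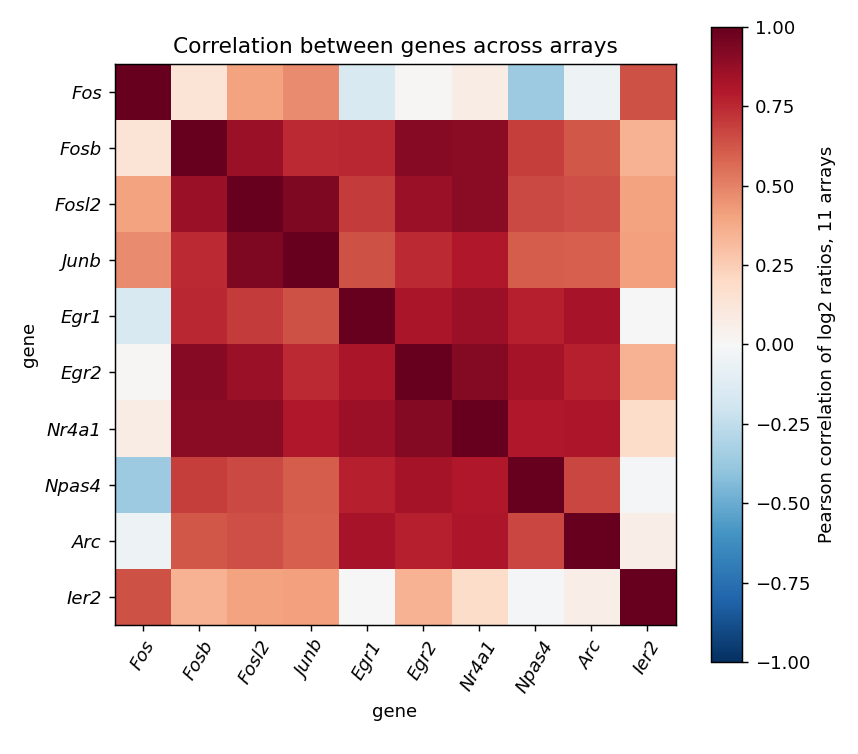
Pearson correlation between the log2 ratios of each pair of the 10 genes over 11 arrays (colour, from -1 in blue to 1 in red; both axes list the genes). The 8 genes from Fosb to Arc form one red block of 0.60 to 0.93, and the rows of Fos and Ier2 are paler.

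**Figure D4:**
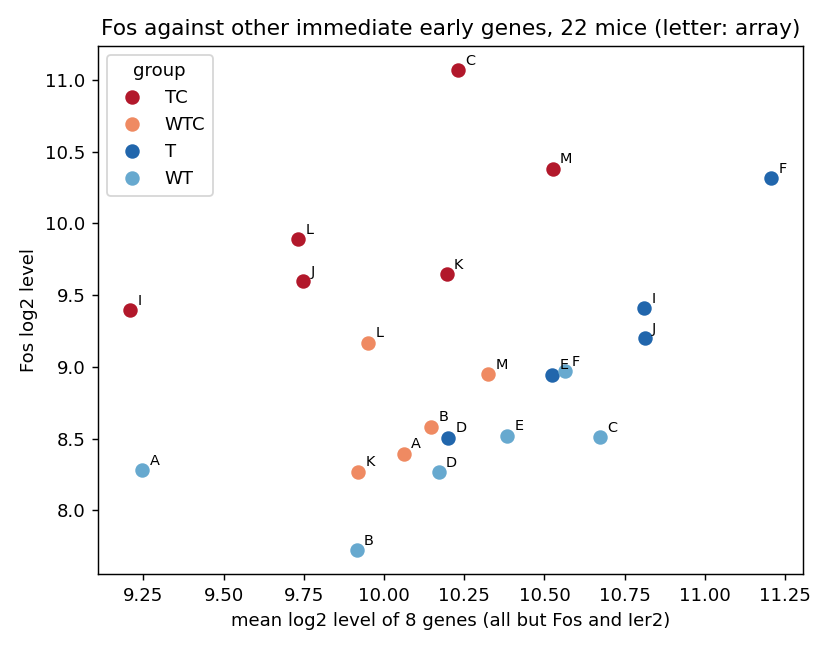
Fos log2 level (y axis) against the mean log2 level of the 8 genes other than Fos and Ier2 (x axis) for 22 mice, coloured by group and lettered by array. The TC mice lie above the WTC mice in Fos, with the mean of the other genes at 9.21 to 10.53 in TC and 9.92 to 10.32 in WTC. The T mice reach farthest to the right (10.20 to 11.21) and overlap each other group on that axis.

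The mean log2 level of those 8 genes was 9.94 ± 0.47 (SD, n = 6) in TC, 10.08 ± 0.16 (n = 5) in WTC, 10.71 ± 0.38 (n = 5) in T and 10.16 ± 0.52 (n = 6) in WT. T was the highest group and its range of 10.20 to 11.21 overlapped those of the others. The 8 features whose array ratios most resembled the mean of all 10 genes, of 16025 with a symbol, were Sag (r = 0.96), 9230102K24Rik, Lhx2, Zfp131, Cplx4, Sla2, Pde6c and Ptgs2 (r = 0.90). Ptgs2, the inducible cyclooxygenase, is itself an activity-induced gene in cortical neurons. The lowest were Ppfia1 (r = -0.93), Inpp5a and Casq2. By deviations within groups over the 22 mice, Sag had r = 0.60 and Lhx2 0.69, while Ptgs2 had 0.40 and Cplx4 0.21. The highest by those deviations was Slc1a3, an astrocyte marker, at 0.78, and the 8 highest were all other features than the 8 named above.

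Of 52 other inducible genes listed for comparison, 50 were measured, and none passed the adjusted threshold in any of the 5 comparisons in the fit to ratios of all arrays. For TC minus WTC, 5 were higher and 1 lower at an unadjusted p under 0.05, with a median log2 ratio of -0.07, where 14.8% of all features had such a p. The 3 with the smallest p were Nfil3 at 0.48 ± 0.12, a bZIP repressor, Crem at 0.59 ± 0.16, a CREB-family gene with an inducible repressor form, and Gem at 0.81 ± 0.26, a small GTP-binding protein, with adjusted p-values of 0.163, 0.19 and 0.234 in limma. Crem had a mean log2 level of 9.90 ± 0.38 (SD, n = 6) in TC and 9.24 ± 0.29 (n = 5) in WTC, and Gem 8.29 ± 0.53 and 7.43 ± 0.21. When arrays I, J and K were left out, Nfil3 was at 0.54, Crem at 0.66 and Gem at 1.20, and 0 of 50 passed in the fit to ratios. In the separate-channel fit without them 1 of 50 passed, against 0.154% of features, and this was Gem at 1.23 (adjusted p = 0.0163, limma).

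In wild-type mice the share of these inducible genes that differed after the lesion was near that of all features. For WTC minus WT, 8 of the 50 were higher and 4 lower at an unadjusted p under 0.05, against 19.5% of features, and in the separate-channel fit 9 of the 50 rose and 5 fell past the adjusted threshold, where 26.6% of all features passed. The 3 with the smallest p in the fit to ratios were Gadd45g, a growth arrest gene, at 0.62 ± 0.13, the acute-phase factor Cebpd at 2.39 ± 0.51 and the circadian repressor Bhlhe40 at -0.49 ± 0.11 (adjusted p = 0.0952, 0.0952 and 0.0964, limma). Cebpd had mean log2 levels of 13.95 ± 0.63 (SD, n = 5) in WTC and 11.32 ± 0.57 (n = 6) in WT. Within the AP-1 and ATF partners (Fosl1, Jun, Jund, Atf3, Maff and Crem) the median WTC minus WT log2 ratio was 0.62, and 4 of 6 passed in the separate-channel fit. Atf3, a stress-induced dimer partner of Jun, rose there by 1.56 (adjusted p = 0.000456, limma), while Fos was at 0.36 (adjusted p = 0.35). In the fit to ratios without arrays I, J and K, 5 of the 50 rose and 0 fell, against 6.7% of features, Atf3 and Cebpd among them at 1.63 and 2.94 (adjusted p = 0.0108 and 0.0124, limma). Gadd45g and Bhlhe40 were at 0.60 and -0.41 there, with adjusted p-values of 0.0903 and 0.083.

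For TC minus T, Gadd45g, Vgf and Atf3 had the smallest p-values, at log2 ratios of 0.60, -0.57 and 1.31, with adjusted p-values of 0.229 to 0.271 in limma. Over the 50 genes 6 were higher and 9 lower at an unadjusted p under 0.05, against 11.9% of features. It was 7 higher and 1 lower without arrays I, J and K, against 1513 higher and 552 lower of all 25997 features. Gadd45g was at 0.54, Vgf at -0.28 and Atf3 at 1.66 there. Vgf, a neuropeptide precursor, had a mean log2 level of 14.41 ± 0.18 (SD, n = 6) in TC mice and 14.95 ± 0.23 (n = 5) in T mice. The 3 measured Egr and Nr4a relatives (Egr3, Egr4 and Nr4a2) were all below 0, and Egr3 and Egr4 fell in the separate-channel fit, at -0.24 and -1.45 with adjusted p-values of 0.0324 and 0.0251. Neither passed in that fit without arrays I, J and K, at -0.18 for Egr3 and -0.90 for Egr4 (adjusted p = 0.417 and 0.436, limma). For T minus WT, 41 of 50 were positive with a median of 0.18, and 2 had an unadjusted p under 0.05, against 2.93% of features, Nfil3 at 0.37 ± 0.12 and Ptgs2 at 0.995 ± 0.42, whereas Crem was at 0.36 ± 0.16 (adjusted p = 0.982 for all 3, limma). The same 3 genes, without arrays I, J and K, were at 0.35, 0.46 and 0.20, and 0 of 50 had an unadjusted p under 0.05. Of all 25997 features 233 were higher and 247 lower at that p there (limma). For the difference of lesion effects the smallest p-values were those of Rgs2, Homer1 and Egr3, at -0.35, -0.68 and -0.21, each with an adjusted p of 0.807. They were nearer 0 when arrays I, J and K were left out, at -0.14, -0.26 and -0.08.

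The genes upstream, of the serum response factor, CREB, MEF2 and MAP kinase arms, were measured for all 22 listed. None passed in the fit to ratios of all arrays in any comparison. The smallest p for WTC minus WT and for TC minus T was that of Rps6ka1, a kinase downstream of MAP kinase, at 1.15 ± 0.16 (adjusted p = 0.0564) and 1.08 ± 0.16 (adjusted p = 0.213, limma). It rose in both comparisons in the separate-channel fit, by 1.24 and 1.09 with adjusted p-values of 4e-05 and 0.00038. There 2 of the 22 genes rose and 1 fell in each of these comparisons, against 26.6% and 7.25% of features. Rps6ka1 was at 1.21 and 0.88, without arrays I, J and K, in the separate-channel fit (adjusted p = 0.000156 and 0.0314), and in the fit to ratios it rose for WTC minus WT, by 1.09 (adjusted p = 0.0246, limma). Among the 22 genes without those arrays, 2 rose and 0 fell in the fit to ratios for WTC minus WT, against 6.7% of features. In the separate-channel fit 3 rose and 2 fell, against 26.3%, and for TC minus T 1 rose and 0 fell, against 3.98%. Microglial markers moved along with the lesion, with 6 of 6 positive in each comparison and a median of 1.28 for WTC minus WT and 0.61 for TC minus T. Their mean log2 level was 11.41 to 13.53 in TC and 12.70 to 13.52 in WTC, against 11.60 to 11.89 in T and 11.40 to 11.99 in WT. Their part in the Rps6ka1 difference was not tested. For TC minus WTC and the difference of lesion effects it was Crtc3, a CREB coactivator, at -0.27 and -0.20, and for T minus WT Crtc2 at -0.17, with adjusted p-values of 0.181, 0.807 and 0.982 in limma. The same log2 ratios were -0.29, -0.26 and -0.13 when arrays I, J and K were left out.

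The authors' deposited table holds 3 of the comparisons for the same genes. Of the 10 genes only Fos had an adjusted p under 0.05 there, and only for TC minus WTC. For TC minus T the authors' deposited table gives -1.06 for Nr4a1 with an adjusted p of 0.0973, -1.40 for Egr2 with 0.122 and -0.71 for Fosb with 0.125. For WTC minus WT its values for the 10 genes lie between -0.50 (Egr1) and 0.36 (Fos), in the authors' deposited table, with adjusted p-values of at least 0.309.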

How the data were processed

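Cortical RNA of 22 mice was measured on 11 Agilent arrays with 62976 spots each. The authors deposited intensity readings of spots and their surroundings, which Feature Extraction 10.7.3.1 wrote as median pixel brightness on a linear scale, without normalization, per the file headers. Red over green as a log10 value, also written by the program per the file headers, served only as an alternative. The authors' own limma results were also deposited, as log fold changes (read here as log2, since the base is not stated) and adjusted p-values, of which 766 cells for WTC minus WT hold numbers above 1 and were not used. The series' description speaks of repeated hybridisations, while each mouse is on 1 array here.

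Background correction used normexp (offset 50), and log2 ratios were then normalized by loess within arrays in limma 3.58.1 (R 4.3.3), leaving control and outlier spots out of the curve; median signals were used because the files hold those. A probe had to be well above background in 5 or more of 22 channels (35414 of 55681 probes), and the brightest probe stood for its gene, which gave 25997 features, 16035 of them with a symbol. No spot was saturated (0 flags). The linear model (lmFit, then eBayes, two-sided) estimated each group against WT beside a dye effect, with 7 residual degrees of freedom and Benjamini-Hochberg adjustment over all features at 0.05. For levels by mouse, channels were further put on a common scale with Aquantile and freed of each probe's dye effect. The separate-channel fit took the scaled channels with a dye term and array as a block (correlation 0.294, 17 residual degrees of freedom). Every channel is a different mouse per the labels.

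The 10 genes, the comparison lists and the motifs were chosen with earlier results of these data known. All 10 genes are named. Of the other inducible genes, those are named that passed in the fit to ratios or had 1 of the 3 smallest p-values of a comparison, and of the upstream genes the 1 with the smallest p. By likeness, the 8 highest and 3 lowest are named, and the 1 highest by deviations within groups. Further genes of these lists, named where the separate-channel fit is described, were chosen after their values were seen. Alternatives varied the background correction, normalization, probe filter, probe choice, dye and slide terms, weights, prior, model, labels of 3 arrays and marker covariates, and left out each array in turn. The fits were tested on simulated data.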

Additional observations from a re-analysis of the deposited data

Results flagged for a closer look

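Of 40 groups (10 genes in 4 groups of mice), 5 held a mouse far from the others of its group by Dixon's test, which flags about 1 group in 20 by chance. The WTC mouse of array K had the lowest WTC log2 level of Egr1, 12.0839, against 12.4834 for the next, and of Nr4a1, 12.462, against 12.9195. The WT mouse of array A had the lowest WT log2 level of Egr1, 11.4195, against 12.9846 for the next, and of Fosl2, 9.073, against 9.4178. The T mouse of array J had the highest T log2 level of Fosb, 9.0619, against 8.9808 for the next, in a group whose whole range is narrow.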

How the results depend on the processing

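The number of the 10 genes that passed was 0 in each of the 5 comparisons in the fit to ratios, and 0 for TC minus WTC, T minus WT and the difference of lesion effects under every alternative run. For TC minus T it was 2 with array weights (Fosb and Npas4), against 7.13% of features, and 2 in the separate-channel fit (Egr2 and Nr4a1), against 7.25%. In that fit it was 1 with a slide term (3.4% of features), 1 when the TC mouse of array I was left out (12.4%) and 1 when the T mouse of array F was (7.33%), each time Nr4a1. For WTC minus WT, array weights gave 0 of the 10 genes against 38.3% of features. In separate-channel fits added after seeing the data TC minus T had 3 without the TC mouse of array C (Fosb, Egr2 and Nr4a1; 6.34% of features), 4 without the WT mouse of array A (Fosb, Egr1, Egr2 and Nr4a1; 8.21%) and 0 without arrays I, J and K (3.98%). WTC minus WT had 1 without that WT mouse (Egr1; 22.3%) and 1 without arrays I, J and K (Fosl2; 26.3%). The cause was not tested. Leaving out each array in turn gave 0 to 0 genes in every comparison. Over 23 alternatives the TC minus WTC log2 ratio of Fos ran from 0.70 (striatal markers as a covariate) to 1.54 (separate channels without arrays I, J and K), with adjusted p-values of 0.0504 to 1, and over leaving out each array from 0.99 to 1.34. The TC minus T log2 ratio of Nr4a1 ran from -1.21 to -0.03 and that of Egr2 from -1.74 to -0.65. Arc changed sign under 3 of the 23 alternatives for TC minus T and under 5 for T minus WT, and Egr1 under 4 for T minus WT. No paired analysis was possible because each mouse is on 1 array and no number in the labels pairs mice across groups beyond the array itself.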

Other observations

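The features whose 11 array ratios most resembled those of Fos alone, a likeness looked at after its values were seen, included Vps37a (r = 0.95), Emd (r = 0.94) and Gem (r = 0.93). Emd, which encodes the nuclear envelope protein emerin, had a TC minus WTC log2 ratio of 0.86 and a TC minus T log2 ratio of 0.62. Gem had 0.81 and 0.58, and Vps37a 0.26 and 0.05. By deviations within groups over 22 mice, the same 3 genes had r = 0.60, 0.34 and 0.68 in the order Vps37a, Emd, Gem.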
